A study of Mus musculus with 12 samples.

Results

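The genes described are 10 members of the circadian clock: *Arntl* (which encodes BMAL1), *Clock*, *Per1*, *Per2*, *Per3*, *Cry1*, *Cry2*, *Nr1d1*, *Nr1d2* and *Dbp*. They were chosen by name from textbook knowledge of the oscillator and not by their values, although earlier results of these data were known. They were 10 of the 55401 genes counted, and all 10 were among the 16540 genes that passed the filter on low counts. Their RNA was measured by RNA-seq in scWAT (subcutaneous white adipose tissue) of 12 female mice, 1 library per mouse.

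The mice were *Jmjd1a* +/+ (wild type) or *Jmjd1a* HY/HY (HY/HY from here on), on a C57BL/6J background, and 16 weeks old when the treatment began. The HY allele is a germline knock-in carried by every cell, in which H1122Y removes the demethylase activity of JMJD1A, the histone H3 lysine 9 demethylase encoded by *Kdm3a*. All mice, controls included, spent 1 week of acclimation at 30°C and then 1 further week at 30°C (thermoneutral, TN) or at 8°C (cold), with 3 mice in each of the 4 groups. The comparisons ask how clock RNAs of scWAT differed between cold and thermoneutral mice of each genotype, between the genotypes at each temperature, and whether the response to cold differed between the genotypes. The mice lived under a daily light and dark cycle, and the time of day at which tissue was taken is not given in the sources used here.

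In the mammalian clock, CLOCK and BMAL1 bind E-boxes and switch on the *Per* and *Cry* genes, whose proteins then block CLOCK and BMAL1, so that the loop turns about once a day. The same pair of activators switches on *Nr1d1* and *Nr1d2*, whose products REV-ERBα and REV-ERBβ repress *Arntl* through ROR elements, and *Dbp*, whose product acts on D-boxes. Adipocytes hold such a clock of their own, in which *Arntl* peaks at about the opposite time of day to *Nr1d1*, *Dbp* and the *Per* genes. A bulk tissue sample gives 1 moment of this cycle for each animal.

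The libraries held from 13592629 to 26352081 counts on genes of the sense strand. *Kdm3a* RNA did not differ between the genotypes by the test, at 30°C (log2 difference −0.12, adjusted p = 0.753) or at 8°C (0.17, adjusted p = 0.604); its level does not check the HY point mutation. Adipocyte markers summed to between 13100 and 39700 CPM (counts scaled to the TMM-adjusted size of each library), and all 7 of these markers were detected. The 5 beige markers summed to 60.5 to 223 CPM at 30°C and in the cold to 8270 to 9160 CPM in wild-type mice and 508 to 1640 CPM in HY/HY animals. The library of wild type at 30°C, replicate 2, stood apart. It had 1430 CPM of the 10 muscle markers, against 4.24 to 24.2 CPM elsewhere, and 3870 CPM of the 8 mammary markers, against 560 to 2500 CPM. HY/HY replicate 3 at 30°C also differed from its group. It had 560 CPM of the mammary markers, against 1480 and 1570 CPM in replicates 1 and 2. Of its counts 16.77% were on genes of mitochondrial DNA, against 9.32% and 9.76%. Lymph node markers summed to 3.43 to 23.1 CPM. In wild-type mice the 5 endothelial markers summed to 451 to 718 CPM at 30°C and 855 to 1160 CPM in the cold (4 called higher), and the mammary markers to 2130 to 3870 CPM and 1430 to 1570 CPM (3 called lower). In the cold the 6 macrophage markers summed to 90.4 to 94.2 CPM in wild-type mice and 144 to 215 CPM in HY/HY animals (3 called higher in HY/HY). In bulk tissue, a change in the share of a cell type and a change of RNA per cell cannot be told apart.

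Promoter sequence was available for 9 of the 10 members, as 13 promoters that run from 250 bases before a transcription start to 50 bases after it (RefSeq, GRCm38.p6). They were searched on both strands for the E-box CACGTG, the prime E-box CACGTT, the D-box TTANGTAA, the ROR and REV-ERB element TAGGTCA and the cAMP response element TGACGTCA. These letters are found in 7.15%, 4.68%, 2.32%, 2.61% and 1.79% of all 32851 promoters of the same length. Among the members, 6 held at least 1 match, in 6 of the 13 promoters. The shares above are for each element alone, and the share of all promoters with any of these elements was not counted. The 4 promoters below were chosen to show 1 gene for each element found, with the matching letters in capitals. Position 1 is the first transcribed base, and no matches overlap within them. The *Per1* promoter (chr11:69098699-69098998, plus strand) has an E-box from position −166. The *Per3* promoter (chr4:151044616-151044915, minus strand) has D-boxes from positions −205 and −158. The *Cry2* promoter (chr2:92434020-92434319, minus strand) has a prime E-box, read on the opposite strand, from position −166. The second *Arntl* promoter (chr7:113207261-113207560, plus strand) has a ROR and REV-ERB element from position 31.
Per1: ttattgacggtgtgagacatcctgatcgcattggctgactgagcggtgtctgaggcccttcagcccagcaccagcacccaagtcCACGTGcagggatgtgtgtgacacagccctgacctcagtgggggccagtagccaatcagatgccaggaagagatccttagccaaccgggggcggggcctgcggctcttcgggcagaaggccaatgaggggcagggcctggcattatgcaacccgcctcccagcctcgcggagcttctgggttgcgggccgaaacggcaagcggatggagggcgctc
Per3: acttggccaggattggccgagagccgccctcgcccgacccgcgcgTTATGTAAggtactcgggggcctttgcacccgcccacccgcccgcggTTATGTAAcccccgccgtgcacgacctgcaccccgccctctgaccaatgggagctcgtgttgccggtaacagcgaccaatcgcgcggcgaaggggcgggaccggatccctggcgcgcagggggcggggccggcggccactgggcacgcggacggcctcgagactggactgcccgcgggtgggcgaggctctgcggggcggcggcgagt
Cry2: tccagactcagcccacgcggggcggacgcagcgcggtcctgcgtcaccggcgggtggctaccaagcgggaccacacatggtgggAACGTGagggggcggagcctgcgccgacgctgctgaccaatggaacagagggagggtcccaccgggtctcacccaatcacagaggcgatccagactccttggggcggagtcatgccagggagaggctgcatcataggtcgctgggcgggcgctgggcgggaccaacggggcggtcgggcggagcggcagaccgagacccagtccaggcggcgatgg
Arntl: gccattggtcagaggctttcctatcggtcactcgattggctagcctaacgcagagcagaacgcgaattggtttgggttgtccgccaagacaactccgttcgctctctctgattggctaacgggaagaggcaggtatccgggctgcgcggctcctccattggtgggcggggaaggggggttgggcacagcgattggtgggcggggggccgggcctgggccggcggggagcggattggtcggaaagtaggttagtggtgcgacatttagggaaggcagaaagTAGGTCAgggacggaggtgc
*Cry1* had an E-box from position −60 and a prime E-box from position −79, and *Nr1d1* had a prime E-box from position −28. A match is a run of letters and not a measured binding site, and no binding was measured in the libraries described.

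Per kilobase of exon, the REV-ERBα gene *Nr1d1* and the D-box factor *Dbp* were the highest of the 10 genes, with means over 12 libraries of 64.5 CPM per kilobase each. *Dbp* was the highest in 7 libraries and *Nr1d1* in the other 5, so their order was not fixed. *Nr1d2* (19.8 CPM per kilobase), *Per1* (14.4), *Cry2* (10.7), *Per3* (9.13) and *Per2* (8.95) followed. The ranges of *Cry2* (7.0 to 13.6), *Per3* (3.72 to 13.8) and *Per2* (3.48 to 19.2) overlapped, as did those of *Clock* (2.68 to 5.38, mean 4.04) and *Cry1* (2.24 to 5.80, mean 3.73). *Arntl* was the lowest in 11 of 12 libraries, with a mean of 1.49 CPM per kilobase and a range from 0.645 to 4.67. Exon lengths came from an older gene set than the counts, which limits this order of levels.

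Between cold and thermoneutral wild-type mice, *Cry2* alone of the 10 members was called, and it was lower in the cold. Calls needed an adjusted p under 0.05 (edgeR quasi-likelihood test, Benjamini-Hochberg over all 16540 genes) and a fold change over 1.5 or under 0.67. Of all genes tested, 6.93% were called lower and 10.3% higher in this comparison, so 1 of 10 lower and 0 of 10 higher is near that background. The estimates of 7 members were below 0 and of 3 above 0, with a median log2 fold change of −0.32 against −0.07 over all genes tested. With library totals in place of TMM, 1057 genes were called higher and 4133 lower, in place of 1707 and 1147, and *Cry2*, *Per2* and *Per3* were called lower. That scaling moved the median of all genes to −0.41.

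**Figure D1:**
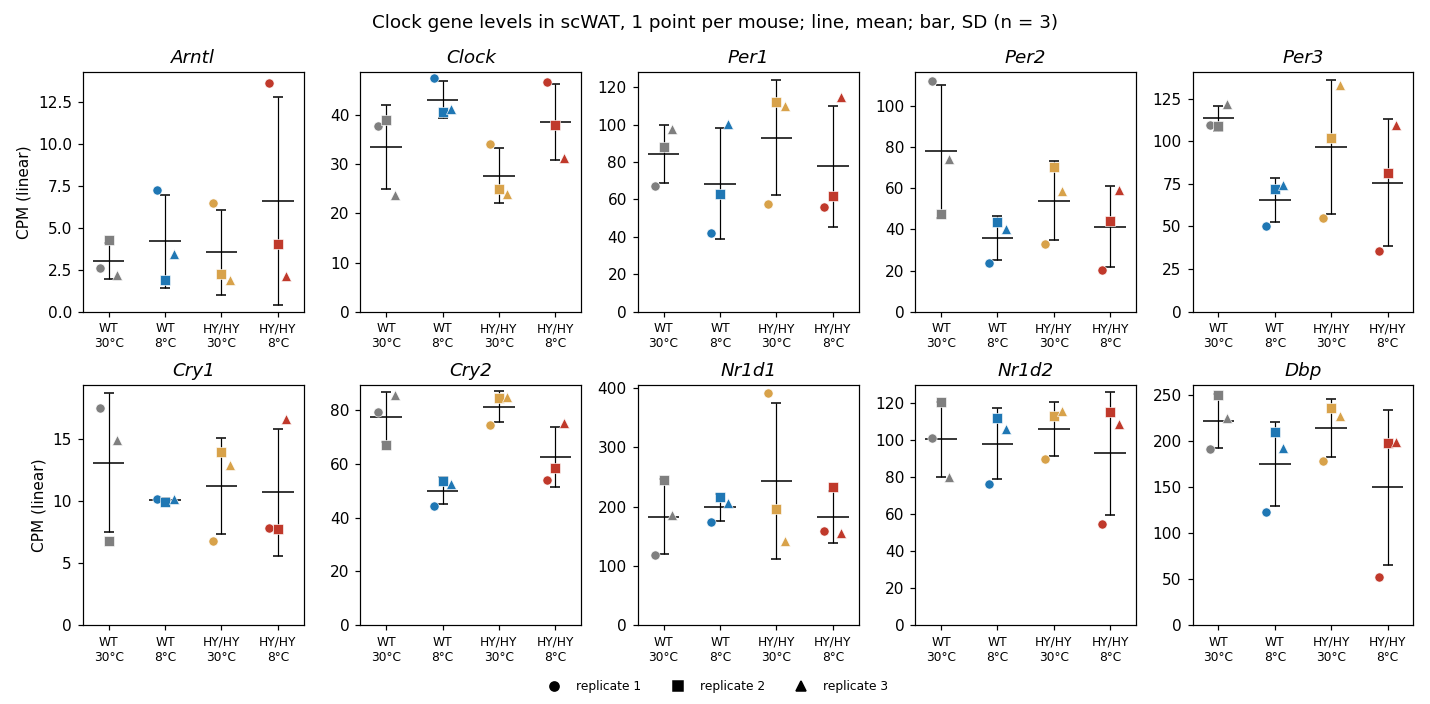
Level of each clock gene in CPM on a linear axis from 0, in wild-type (WT) and HY/HY animals at 30°C and 8°C. Each point is 1 mouse, the marker shape gives its replicate number, the line is the mean of 3 mice and the bar its SD. *Cry2* of wild-type mice lies at 44.2 to 53.6 CPM at 8°C, below its 67.3 to 85.8 CPM at 30°C, while for most other genes the mice of a group are spread widely.

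*Cry2* (chromosome 2, 92403646 to 92434085), a cryptochrome that represses CLOCK and BMAL1, had 79.3, 67.3 and 85.8 CPM in wild-type mice at 30°C, and 44.2, 53.6 and 52.4 CPM at 8°C. It had 74.7, 84.5 and 85.1 CPM in HY/HY animals at 30°C, and 53.9, 58.5 and 75.4 CPM at 8°C. All 3 wild-type mice in the cold lay below all 3 at 30°C, while the ranges of the 2 HY/HY groups shared values from 74.7 to 75.4 CPM. Its mean went from 77.5 ± 9.43 (SD, n = 3) to 50.1 ± 5.12 CPM in wild-type mice, which is −0.63 on the log2 scale (SE 0.14, adjusted p = 0.00849 by edgeR). In HY/HY animals it went from 81.4 ± 5.86 to 62.6 ± 11.3 CPM, or −0.38 on the log2 scale (95% interval −0.69 to −0.07, adjusted p = 0.248). The difference between these responses was 0.25 on the log2 scale (95% interval −0.19 to 0.68, adjusted p = 0.598), so a different response of the genotypes was not shown. At 8°C, *Cry2* of every HY/HY animal lay above that of every wild-type mouse. The lowest HY/HY animal (53.9 CPM) and the highest wild-type mouse (53.6 CPM) were nearly level. The fitted difference between these groups was 0.32 on the log2 scale (95% interval 0.01 to 0.63, adjusted p = 0.207). The exact permutation test of 3 mice against 3, two-sided, gave p = 0.1 for the wild-type cold response, the smallest p it allows. Without wild-type replicate 3 at 30°C the log2 fold change was −0.55 (adjusted p = 0.024), and without wild-type replicate 1 at 8°C it was −0.54 (adjusted p = 0.0446), both within the fold limit, so that the call was lost. Without the library with muscle RNA it was −0.72 (adjusted p = 0.0103). Over the same wild-type mice the endothelial and beige marker sums were higher and the mammary sum was lower in the cold, without overlap, and at 8°C the macrophage sum was higher in every HY/HY animal than in every wild-type mouse. The part of these cell types in the *Cry2* and other clock gene differences was not tested.

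*Cry1* (chromosome 10, 85131700 to 85185054), the other cryptochrome, had 17.5, 6.78 and 14.9 CPM in wild-type mice at 30°C and 10.2, 9.88 and 10.1 CPM at 8°C. In HY/HY animals it had 6.74, 13.9 and 12.8 CPM at 30°C and 7.77, 7.69 and 16.6 CPM at 8°C. The groups overlapped in every comparison, and the 3 wild-type mice in the cold were the closest to each other, within 1.03-fold. The log2 fold change with cold was −0.37 in wild-type mice (95% interval −1.21 to 0.47, adjusted p = 0.512) and −0.07 in HY/HY animals (−0.91 to 0.77, adjusted p = 0.952).

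The 3 *Per* genes encode the period proteins, which enter the repressor complex with the cryptochromes. *Per2* (chromosome 1, 91415977 to 91459351) had 112, 47.5 and 74.5 CPM in wild-type mice at 30°C and 23.9, 43.5 and 40.4 CPM at 8°C. In HY/HY animals it had 32.7, 70.3 and 58.8 CPM at 30°C and 20.3, 44.1 and 59.3 CPM at 8°C. The wild-type groups did not overlap, although the lowest mouse at 30°C and the highest at 8°C were close, and the HY/HY groups overlapped. Its log2 fold change with cold was −1.12 in wild-type mice (95% interval −2.03 to −0.21, adjusted p = 0.0702), which missed the threshold, and −0.39 in HY/HY animals (−1.29 to 0.51, adjusted p = 0.704). This is the member whose call depended most on the processing: the adjusted p was 0.0281 without the filter on low counts, 0.042 in a fit to the 6 wild-type libraries and 0.0359 with DESeq2. It was 0.0482 without HY/HY replicate 1 at 8°C, a library that is in neither wild-type group. Without the library with muscle RNA the estimate was −1.38 (adjusted p = 0.0515). The interaction was 0.73 (95% interval −0.54 to 2.0, adjusted p = 0.598).

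*Per3* (chromosome 4, 150997018 to 151044707) had 109, 109 and 122 CPM in wild-type mice at 30°C and 50.4, 71.9 and 74.0 CPM at 8°C. In HY/HY animals it had 55.0, 102 and 133 CPM at 30°C and 35.7, 81.3 and 110 CPM at 8°C. The wild-type groups were separate, whereas the 6 HY/HY animals ranged from 35.7 to 133 CPM and overlapped. Cold against 30°C gave a log2 difference of −0.79 in wild-type mice (95% interval −1.59 to 0.00, adjusted p = 0.132) and −0.35 in HY/HY animals (−1.15 to 0.44, adjusted p = 0.695). In a fit to the 6 wild-type libraries alone the adjusted p was 0.00944, and with library totals it was 0.0162.

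*Per1* (chromosome 11, 69095108 to 69109965) had 67.4, 87.9 and 97.7 CPM in wild-type mice at 30°C and 41.8, 63.1 and 100.5 CPM at 8°C. In HY/HY animals it had 57.4, 112 and 110 CPM at 30°C and 56.1, 62.0 and 115 CPM at 8°C. All groups overlapped, and replicate 1 was the lowest mouse of each of the 4 groups. The log2 fold change with cold was −0.30 in wild-type mice (95% interval −1.08 to 0.48, adjusted p = 0.571) and −0.26 in HY/HY animals (−1.04 to 0.52, adjusted p = 0.777).

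*Arntl* (chromosome 7, 113178471 to 113314126), the partner of CLOCK, had 2.63, 4.26 and 2.18 CPM in wild-type mice at 30°C and 7.28, 1.89 and 3.46 CPM at 8°C. In HY/HY animals it had 6.47, 2.27 and 1.92 CPM at 30°C and 13.7, 4.06 and 2.11 CPM at 8°C. Replicate 1 was the highest mouse of 3 of the 4 groups, and the groups overlapped in every comparison. These levels rest on 25 to 211 counts a library. Its log2 fold change with cold was 0.46 in wild-type mice (95% interval −1.05 to 1.98, adjusted p = 0.66) and 0.90 in HY/HY animals (−0.57 to 2.37, adjusted p = 0.572). Its sign rested on single mice: the first was −0.17 without wild-type replicate 1 at 8°C, and the second was −0.19 without HY/HY replicate 1 at 8°C.

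*Clock* (chromosome 5, 76209868 to 76305603) had 37.7, 39.1 and 23.7 CPM in wild-type mice at 30°C and 47.5, 40.5 and 41.3 CPM at 8°C. In HY/HY animals it had 34.1, 24.9 and 24 CPM at 30°C and 46.7, 37.9 and 31.3 CPM at 8°C. All 3 wild-type mice in the cold lay above all 3 at 30°C, by a small margin, and the HY/HY groups overlapped. Cold against 30°C gave a log2 difference of 0.36 in wild-type mice (95% interval −0.09 to 0.81, adjusted p = 0.22) and 0.48 in HY/HY animals (0.03 to 0.94, adjusted p = 0.317). The wild-type estimate ran from 0.012 to 0.488 over the alternatives of processing and of leaving out 1 library.

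*Nr1d1* (chromosome 11, 98767932 to 98775377), which encodes REV-ERBα, had 118, 245 and 185 CPM in wild-type mice at 30°C and 173, 216 and 206 CPM at 8°C. In HY/HY animals it had 391, 195 and 142 CPM at 30°C and 158, 232 and 155 CPM at 8°C. The groups overlapped in every comparison, and the highest of the 12 libraries was HY/HY replicate 1 at 30°C. The log2 fold change with cold was 0.12 in wild-type mice (95% interval −0.64 to 0.87, adjusted p = 0.835) and −0.42 in HY/HY animals (−1.17 to 0.34, adjusted p = 0.613). The second was 0.11 without that highest library, and the first was −0.12 without wild-type replicate 1 at 30°C and −0.23 with library totals.

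*Nr1d2* (chromosome 14, 18204056 to 18239106), which encodes REV-ERBβ, had 101, 121 and 79.9 CPM in wild-type mice at 30°C and 76.0, 112 and 106 CPM at 8°C. In HY/HY animals it had 89.5, 113 and 116 CPM at 30°C and 54.5, 115 and 109 CPM at 8°C. All groups overlapped, and HY/HY replicate 1 at 8°C was the lowest of the 12 libraries. Its log2 fold change with cold was −0.04 in wild-type mice (95% interval −0.60 to 0.53, adjusted p = 0.939) and −0.19 in HY/HY animals (−0.76 to 0.37, adjusted p = 0.775).

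*Dbp* (chromosome 7, 45705100 to 45710203), a PAR bZIP factor and output of the clock, had 192, 249 and 224 CPM in wild-type mice at 30°C and 123, 209 and 192 CPM at 8°C. In HY/HY animals it had 178, 236 and 227 CPM at 30°C and 51.9, 198 and 199 CPM at 8°C. The groups overlapped in each comparison, and replicate 1 was the lowest mouse of all 4 groups, by 3.84-fold against the highest in HY/HY animals at 8°C. Cold against 30°C gave a log2 difference of −0.34 in wild-type mice (95% interval −1.19 to 0.50, adjusted p = 0.548) and −0.52 in HY/HY animals (−1.36 to 0.33, adjusted p = 0.572). Without HY/HY replicate 1 at 8°C the latter was −0.11 (adjusted p = 0.88).

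No member was called in HY/HY animals between 8°C and 30°C, where 0.181% of all genes were called higher and 0.0665% lower. These shares depended on single libraries: 30 genes were called higher and 11 lower, which became 461 and 203 without HY/HY replicate 3 at 30°C. In the fit to all 12 libraries, 2 members had an unadjusted p under 0.05, *Clock* and *Cry2*, and DESeq2 also called 0 members. The share of all genes at that unadjusted threshold was not counted, so this count and the like counts below have no background beside them. The median log2 fold change of the members was −0.31, against −0.015 over all genes, and 8 of 10 estimates were below 0.

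**Figure D2:**
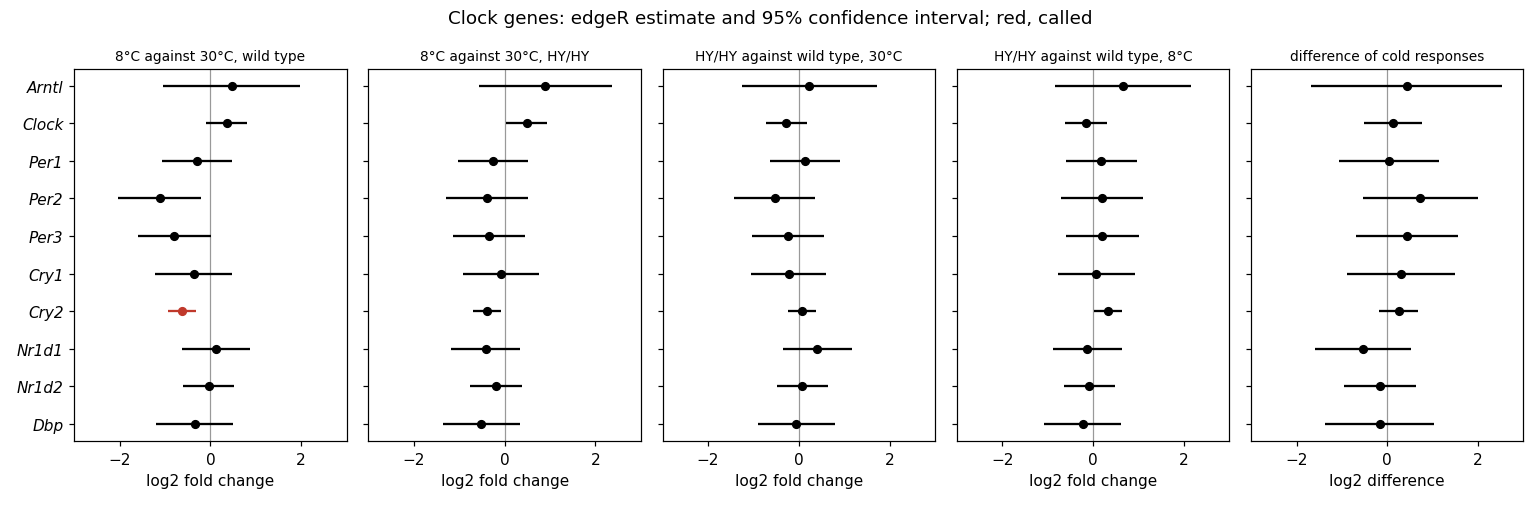
Log2 fold change of each clock gene in the 5 comparisons, as the edgeR estimate (point) with its 95% confidence interval (line), and, in the last panel, how far the genotypes' responses to cold differ. *Cry2* of wild-type mice, in red, is the called member, and most other intervals include 0.

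Between the genotypes no member was called at either temperature. At 30°C, 0.562% of all genes were called higher and 0.441% lower in HY/HY than in wild-type mice. The members' estimates ran from −0.53 for *Per2* (95% interval −1.42 to 0.36, adjusted p = 0.522) to 0.41 for *Nr1d1* (−0.34 to 1.16, adjusted p = 0.563), with a median of 0.01. The *Nr1d1* estimate was −0.11 without HY/HY replicate 1. None of the 10 had an unadjusted p under 0.05, and DESeq2 called 0.

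At 8°C, 1.51% of all genes were called higher and 4.42% lower in HY/HY animals, or 249 and 731 genes, which became 535 and 480 with library totals. The members ran from −0.22 for *Dbp* (95% interval −1.07 to 0.62, adjusted p = 0.785) to 0.66 for *Arntl* (−0.83 to 2.15, adjusted p = 0.624). The *Arntl* estimate was −0.43 without HY/HY replicate 1 at 8°C. *Cry2*, given above, was the member with an unadjusted p under 0.05, and DESeq2 called 0 members. Over the alternatives the *Cry2* estimate ran from 0.169 to 0.451, within the fold limit, and its adjusted p from 0.0383 to 0.581.

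For the interaction, called at an adjusted p under 0.05 alone, 0.169% of all genes were called higher and 2.07% lower. With library totals these became 43 and 188 genes, in place of 28 and 342. No member was called, none had an unadjusted p under 0.05 and DESeq2 called 0. The estimates ran from −0.54 for *Nr1d1* (95% interval −1.60 to 0.53) to 0.73 for *Per2*, and the smallest adjusted p was 0.598. The intervals of *Clock* (−0.52 to 0.76), *Cry2* (−0.19 to 0.68) and *Nr1d2* (−0.96 to 0.64) were the narrowest, and that of *Arntl* (−1.67 to 2.53) was the widest.

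Much of the variation in clock RNAs lay between mice of the same group. The SD between mice of a group, pooled over the 4 groups on the log2 CPM scale, had a median of 0.538 over the 10 members and of 0.25 over all 16540 genes. It was highest for *Arntl* (0.971), *Per2* (0.626) and *Dbp* (0.613), and lowest for *Cry2* (0.18) and *Clock* (0.291). The share of a gene's variance that lay between the 4 groups had a median of 21.9% over the members, against 51.3% over all genes. This share was not corrected for the number of groups, so it is above 0 even where genotype and temperature have no effect. With 12 libraries in 4 groups, a share as large as the members' median can arise without any effect. *Cry2* (78.1%) and *Clock* (51.6%) were the members above the median of all genes, whereas *Cry1* (5.6%), *Nr1d2* (8.1%) and *Nr1d1* (10.1%) varied almost wholly within groups.

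**Figure D3:**
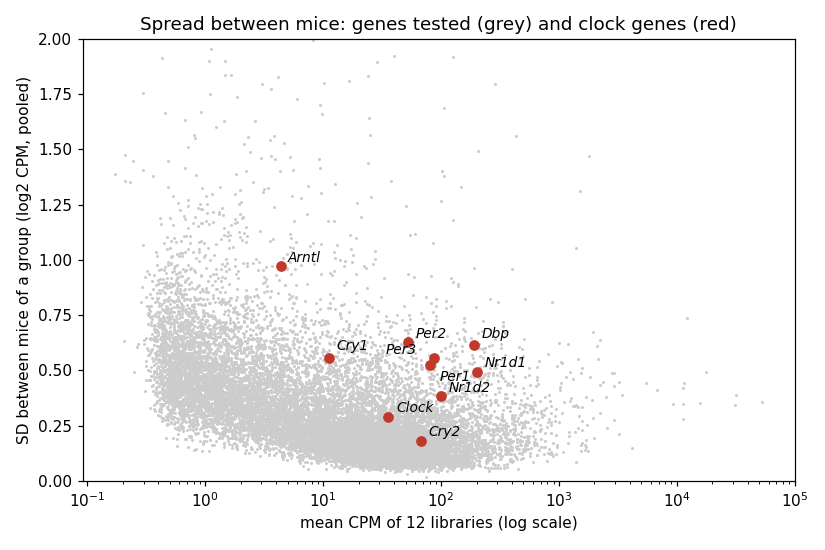
SD between mice of a group (log2 CPM, pooled over 4 groups) against the mean CPM of 12 libraries on a log axis, with 1 grey point for each gene tested and red points for the clock genes; 15 genes lie above the axis. *Arntl* stands at 0.971 and *Dbp* at 0.613, while *Cry2* stands at 0.18, among the bulk of the genes.

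Within groups, *Arntl* and *Clock* deviated together, and mostly against the other members. For each mouse the deviation of log2 CPM from its group mean was taken, and the deviations of 12 mice were correlated as a description, with 8 degrees of freedom left and with the depth and scaling of each library shared by all its genes. The r of *Arntl* with *Clock* was 0.79. *Arntl* deviated against *Per3* (−0.93), *Per2* (−0.90), *Cry2* (−0.89) and *Dbp* (−0.81), and was positive with 1 of the 8 other members besides *Clock*, which was *Nr1d1* (0.32). Among those 8 members, 23 of 28 pairs were positive, with a median r of 0.59, and *Nr1d2* with *Dbp* was the closest (0.91). All 5 negative pairs included *Nr1d1*, the lowest being that with *Cry1* (−0.77).

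**Figure D4:**
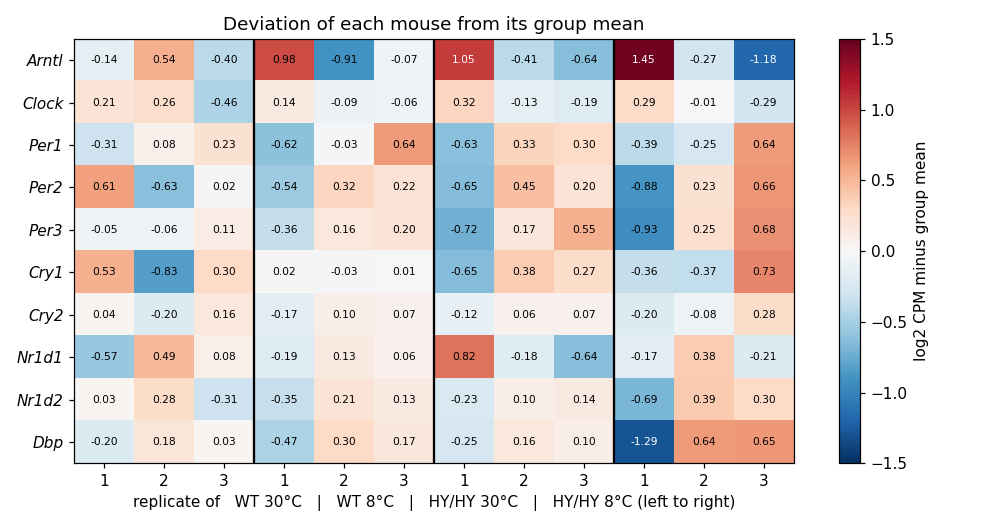
Deviation of each mouse from its group mean for the 10 clock genes, in log2 CPM with a prior count of 2, with replicates 1 to 3 of each group side by side; red is above and blue below the group mean. *Arntl* is red and the *Per* genes and *Dbp* are blue in replicate 1 of wild-type mice at 8°C and of HY/HY animals at both temperatures.

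The mice that carried this pattern were replicate 1 of wild-type mice at 8°C, of HY/HY animals at 30°C and of HY/HY animals at 8°C. They had the highest *Arntl* of their groups and the lowest *Per1*, *Per2*, *Per3*, *Cry2*, *Nr1d2* and *Dbp*. In HY/HY animals at 8°C, 8 of 10 members of replicate 1 lay below the group mean, and in the other 2 groups 7 of 10 did. At 30°C, wild-type replicate 1 had 5 members above and 5 below its group mean. The replicate number comes from the labels, which do not say what it stands for, and whether it marks a shared day or order of collection was not tested.

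The ratio of *Dbp* to *Arntl* counts within a library does not depend on the library's scaling. These mice were singled out by high *Arntl* and low *Dbp* and *Per1*, so low ratios in them restate that pattern and are no separate support. The *Dbp* to *Arntl* ratio was 72.9, 58.6 and 103 in wild-type mice at 30°C, and 16.8, 111 and 55.4 at 8°C. In HY/HY animals it was 27.5, 104 and 118 at 30°C, and 3.80, 48.6 and 94.2 at 8°C. The 3 lowest ratios were thus replicate 1 of 3 groups, and the lowest rested on 801 *Dbp* and 211 *Arntl* counts. The *Per1* to *Arntl* ratio was lowest in the same libraries, at 4.11, 5.74 and 8.87, against 15.2 to 57.1 elsewhere. The *Nr1d1* to *Arntl* ratio was low in HY/HY replicate 1 at 8°C (11.6) and wild-type replicate 1 at 8°C (23.8), but was 60.5 in HY/HY replicate 1 at 30°C, within the range of the remaining libraries (45 to 114).

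**Figure D5:**
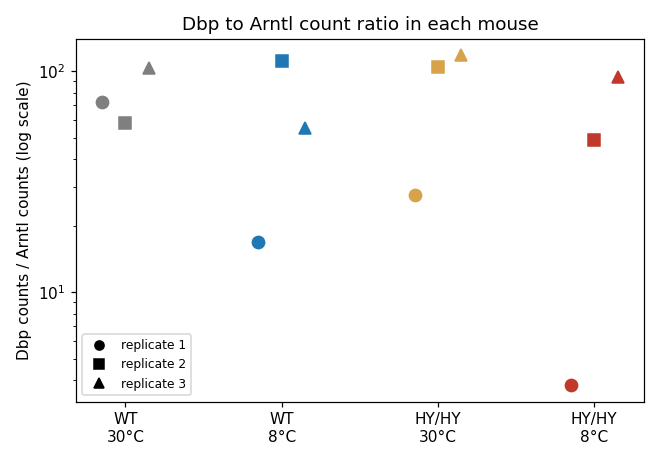
Ratio of *Dbp* to *Arntl* counts in each of the 12 libraries on a log axis, by group, with the marker shape for the replicate number. The 3 lowest points, at 3.80, 16.8 and 27.5, are replicate 1 of HY/HY animals at 8°C, wild-type mice at 8°C and HY/HY animals at 30°C, and the other 9 lie between 48.6 and 118.

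Among 14351 genes outside the members with a mean of at least 1 CPM, those whose log2 CPM followed *Dbp* most closely over the 12 libraries were *E030042O20Rik* (r = 0.922), *Ciart* (0.901), *Tacc2* (0.853), *Gm3362* (0.847) and *Hnrpdl* (0.839). On deviations from group means they were *Ciart* (0.936), *Gm9892* (0.919), *E030042O20Rik* (0.898), *Rasd1* (0.894) and *Cdkl3* (0.893). *Ciart*, also known as *Chrono*, encodes a repressor of CLOCK and BMAL1. It ranged 24.3-fold over the libraries, from 1.04 CPM in HY/HY replicate 1 at 8°C to 25.2 CPM in wild-type replicate 2 at 8°C, and was thus lowest where *Dbp* was lowest.

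The genes closest to *Arntl* over the 12 libraries were *Dtx2* (r = 0.866), *Sh3pxd2b* (0.864), *Eif4g3* (0.859), *Rhoj* (0.852) and *Cnr1* (0.85), and on deviations *Sh3pxd2b* (0.954), *Coro1c* (0.943), *E2f2* (0.94), *Llgl1* (0.939) and *Klb* (0.935). Of a wider list of 23 clock genes, *Ciart*, *Tef* and *Wee1* were among the 50 genes closest to *Dbp* over the 12 libraries. On deviations only *Ciart* and *Tef* were. *Npas2*, a paralog of *Clock* that also pairs with BMAL1, was among the 50 closest to *Arntl* on both measures. *Npas2* was highest in HY/HY replicate 1 at 30°C (3.37 CPM) and 8°C (2.78 CPM) and in wild-type replicate 1 at 8°C (1.93 CPM), the 3 mice that were highest in *Arntl*. In the 9 other libraries *Npas2* was at most 1.15 CPM. With 12 libraries and so many genes, high values of r arise readily, and they are given as a description.

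The wider list holds further activators, repressors, outputs and the kinases and ubiquitin ligases of the loop, and 22 of its 23 genes were tested. In wild-type mice 1 was called higher in the cold and 2 were called lower, where 10.3% and 6.93% of all genes were. *Noct*, which encodes nocturnin and has a daily rhythm in many tissues, had 32.0, 25.9 and 22.9 CPM at 30°C and 63.1, 71.8 and 94.7 CPM at 8°C, without overlap (log2 fold change 1.51, SE 0.24, adjusted p = 0.00105). *Bhlhe41*, which encodes the E-box repressor DEC2, had 221, 195 and 126 CPM at 30°C and 74.4, 98.7 and 85.7 CPM at 8°C (−1.07, SE 0.26, adjusted p = 0.0132). Neither gene overlapped between these groups. The call of *Bhlhe41* was lost without wild-type replicate 1 at 30°C (adjusted p = 0.0511) or replicate 1 at 8°C (0.0564). Without the library with muscle RNA the estimates were 1.48 for *Noct* (adjusted p = 0.00654) and −1.01 for *Bhlhe41* (adjusted p = 0.044), and both were called.

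In HY/HY animals, *Noct* had 18.2, 18.4 and 25.5 CPM at 30°C and 68.1, 56.4 and 36.2 CPM at 8°C, and was the 1 gene of the 22 called, where 0.181% of all genes were called higher (log2 fold change 1.38, SE 0.24, adjusted p = 0.0416). The groups did not overlap, and the estimate stayed between 1.17 and 1.59 over the alternatives, but the adjusted p passed 0.05 in 9 of the 12 fits that each left out 1 library. It was 0.0536 and 0.0522 without wild-type replicate 1 and 2 at 30°C, 0.0703, 0.0886 and 0.0598 without wild-type replicate 1, 2 and 3 at 8°C, 0.136 and 0.161 without HY/HY replicate 1 and 2 at 30°C, and 0.193 and 0.144 without HY/HY replicate 1 and 2 at 8°C. The difference between the *Noct* responses of the genotypes was −0.13 (95% interval −0.85 to 0.59, adjusted p = 0.889). No gene of the wider list was called between the genotypes or for the interaction. At 8°C, 1 gene had an adjusted p under 0.05 (0.0202 by edgeR), with a fold change within the limit. At an unadjusted p under 0.05 there were 3 genes at 30°C, 3 at 8°C and 2 for the interaction, again with no share of all genes counted.

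Hormonal and acute stimuli can also act on *Per* genes, and lists of genes known to respond to them were counted, against the 10.3% of all genes called higher in the cold in wild-type mice, the 0.181% called higher in HY/HY animals, and the 4.42% called lower in HY/HY at 8°C. Of 10 glucocorticoid-responsive genes, *Sgk1*, *Pdk4* and *Cdkn1a* were called higher in the cold in wild-type mice (6 estimates above 0 and 4 below), 0 were called in HY/HY animals (3 at an unadjusted p under 0.05), and *Pdk4* was called lower in HY/HY than in wild-type mice at 8°C. Of 13 immediate early genes, *Egr2*, *Nr4a1*, *Nr4a2* and *Dusp1* were called higher in the cold in wild-type mice (9 estimates above 0 and 4 below), 0 were called in HY/HY animals (1 at an unadjusted p under 0.05), and *Nr4a1* was called lower in HY/HY animals at 8°C. Their part in the levels of the clock genes was not tested.

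Counts of 3 members depended most on the strand counted. *Nr1d1* shares 1075 bases with *Thra*, *Dbp* shares 741 bases with *Sphk2*, and *Arntl* shares 18143 bases of its span with the lncRNA *Gm33721*. Counting both strands together left 80.3% to 86.1% of the sense-strand counts of *Nr1d1* and 34.7% to 52.3% of those of *Dbp*, and gave 89.7% to 135% of those of *Arntl*. The sense-strand counts were used throughout, and with both strands together no member's call changed. The antisense share of sense plus antisense counts was at most 1.55% for *Clock*, 2.67% for *Dbp*, 9.7% for *Nr1d1* and 29.7% for *Arntl*. Antisense counts of *Arntl* were at most 11 a library.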

How the data were processed

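RNA-seq of scWAT from 12 mice was examined. The authors aligned fastp-trimmed read pairs with STAR (mm10) and deposited raw counts per gene (GENCODE M25 identifiers), without normalization. StringTie and FastQC are also named in the submitters' processing notes. Sense-strand counts were used, and entries that name no gene were left out (55.77% to 63.51% of read pairs, mostly unaligned or aligned to several places). Of the identifiers, 32589 were matched to a symbol, and 2645 that share one were not used by name. In R 4.3.3, edgeR 4.0.16 kept 16540 genes (filterByExpr), scaled them by TMM and fitted 1 mean per group to all 12 libraries (8 residual degrees of freedom). P-values are two-sided. DESeq2 1.42.0, other scalings, filters and strands, a replicate block and leaving out each library were alternatives. The script was tested on simulated data. Log2 CPM used a prior count of 2.

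The text names the 10 members, genes of a 23-gene wider clock list where called (1 called gene is counted but not reported here), or close to *Dbp* or *Arntl*, genes of the hormone and immediate early lists where called, and the 5 genes closest to *Dbp* and to *Arntl*. *Ciart* and *Npas2* levels were chosen after their values were seen. Members and lists were chosen with earlier results of these data known. Libraries of a group are separate mice only as far as the labels go, and p-values measure the spread between them. No 2 libraries of a group agreed within sampling noise (chi-square per gene of at least 10.84).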

Additional observations from a re-analysis of the deposited data

How the results depend on the processing

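In wild-type mice, the number of members called between 8°C and 30°C was 1, and became 3 with library totals, 3 in a fit to the libraries of the comparison, 2 without a filter on low counts, 2 with DESeq2 and 2 at an adjusted p under 0.1. Leaving out each library gave 0 to 2 (0 without wild-type replicate 3 at 30°C or replicate 1 at 8°C, 2 without *Jmjd1a* HY/HY replicate 1 at 8°C). The wider list's count of 3 became 8 with library totals and 7 without the fold limit, and 1 to 3 on leaving out a library. In *Jmjd1a* HY/HY mice its count of 1 became 0 with library totals or with the libraries of the comparison, and 0 to 1 on leaving out a library. Between genotypes at 8°C its count of 0 became 1 with library totals and 1 without the fold limit, and for the interaction it was 0 to 1 (1 without *Jmjd1a* HY/HY replicate 1 at 30°C). The causes were not tested.

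Among the members' estimates that were recomputed, those that changed sign were past the threshold under no alternative. In wild-type mice, cold against 30°C, they were *Nr1d1* (−0.228 with library totals, −0.116 to 0.389 on leaving out a library), *Nr1d2* (0.002 with DESeq2, −0.174 to 0.128) and *Arntl* (−0.166 to 0.819). In *Jmjd1a* HY/HY mice they were *Arntl* (−0.194 to 1.657), *Cry1* (−0.529 to 0.123), *Nr1d1* (−0.685 to 0.108) and *Nr1d2* (−0.377 to 0.079) on leaving out a library. Between genotypes they were *Arntl* at 8°C (−0.429 to 1.303) and *Nr1d1* at 30°C (−0.114 to 0.687). Without mitochondrial genes in library sizes, with both strands or with at least 10 counts in every library, no count of called members differed.

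The labels do not say that a replicate number marks a shared litter, batch or day, and not every pair of same-numbered libraries deviated together: correlations of deviations ran from −0.069 to 0.139 for replicate 1, −0.044 to 0.199 for replicate 2 and 0.114 to 0.346 for replicate 3. As a hint from the data and not the design, 7 of 12 libraries correlated best with their own number. Each library has a same-numbered library in every other group, so some such matches arise without any link between them. With the replicate block 3 members were called in wild-type mice, with *Per2* (−1.233, adjusted p = 0.0471) and *Per3* (−0.842, adjusted p = 0.0225) beside *Cry2*. Over all genes, calls between 8°C and 30°C in *Jmjd1a* HY/HY mice were 30 higher and 11 lower. They became 128 and 32 with the block, 216 and 94 with DESeq2, 101 and 49 without the filter and 0 with the libraries of the comparison. Leaving out *Jmjd1a* HY/HY replicate 3 at 30°C gave 461 and 203, and leaving out *Jmjd1a* HY/HY replicate 1 at 8°C gave 7 and 0. *Arntl*, with 25 to 211 counts a library, is the member that depth limits most.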
